A study of Mus musculus with 6 samples.

Results

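Forelimb buds of mouse embryos without RING1A and RING1B were compared between their proximal and their distal part, to ask which differences in transcript level along the limb persisted and which arose when both proteins were lost. The comparison uses 2 of the 6 arrays of the series, picked by their labels, 1 for the proximal and 1 for the distal part, and is called the dKO pair below. The embryos were of the CD1 strain, were taken at E10.5 (E for embryonic day), and carried the alleles Ring1A-/- and Ring1Bfl/fl with the Prx1-Cre transgene. A second pair, the control, came from untreated E10.5 CD1 embryos whose genotype label is Ring1A-/-, although their description calls them wild type. By these labels both pairs lack Ring1A, and the dKO differs from the control in Ring1B and in the Cre transgene. The remaining pair, named where it is used, is wild type CD1 at E10.5 after all-trans retinoic acid (RA), of which the mother was given 100 mg/kg by mouth at E10.25. Each of the 6 groups has 1 array, so every difference below is a difference between 2 arrays, with no replicate check and no p-value. The labels do not say how many embryos stand behind an array. Prx1-Cre uses an enhancer active in limb bud mesenchyme. The surface ectoderm of the bud, and the muscle precursors that migrate into it from the somites, have other origins.

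RING1A and RING1B give Polycomb repressive complex 1 (PRC1) its ubiquitin ligase activity, with which it places ubiquitin on histone H2A at silent developmental genes, among them the Hox clusters and many homeobox genes. In the early limb, RA from the body wall acts near the trunk, and fibroblast growth factors (FGFs) from the apical ectodermal ridge, a thickened epithelium at the rim of the bud, act near the tip. The homeodomain factors MEIS1 and MEIS2 mark the proximal segment, and the distal segment expresses 5′ Hoxa and Hoxd genes. Sonic hedgehog (SHH) from the posterior margin and the BMP antagonist Gremlin 1 keep the ridge active.

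The deposited signals are on a linear scale with no detection calls. The median signal of an array served as its floor, to which lower signals were raised before the log2 step. The floor was 73.0 on the proximal and 76.1 on the distal dKO array, and 64.0 and 59.5 on the control arrays. Differences are given as log2 proximal minus distal, so positive values are higher proximally. A difference that ends at a floored array is a bound, written as "at least" or "a bound". Of 18193 genes, each represented by 1 probe set, 11653 were above the floor on at least 1 dKO array and are called measured, and 11103 were above it on both. On the RA arrays Xist, the RNA of the inactive X chromosome, had signals of 12.9 and 29.5, against 3243 and 3299 on the dKO and 3688 and 3017 on the control arrays, so the RA pair also stands apart from the others in this gene.

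The targeted genes came first. Ring1, which encodes RING1A, had signals of 402 and 578 on the proximal and distal dKO arrays and 624 and 968 on the control arrays. Rnf2, which encodes RING1B, had 2147 and 1887 in dKO and 2042 and 2070.0 in control. The Rnf2 signal was thus of similar size on all 4 arrays. The labels do not place the probes against the deleted exons, so these 2 genes are no check of the deletion. Tbx5, the T-box gene of the forelimb, had 1275 and 948 in dKO, and Prrx1, a homeobox gene of limb mesenchyme, 6621 and 5539.8, so both dKO arrays carry the markers of forelimb mesenchyme. Of 24 PRC1 and PRC2 component genes measured, 0 differed 2-fold between the dKO parts (median log2 0.06).

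In the dKO pair 59 genes were 2-fold or more higher proximally, which is 0.506% of those measured, and 84 were higher distally, 0.721%. The control pair had 155 (1.36%) and 159 (1.4%) of 11397 measured genes, 2.76% together against 1.23% in dKO. For 7 of the 59 and 10 of the 84 the lower array was at the floor. Differences of 4-fold or more numbered 3 each way in dKO, against 35 proximally and 8 distally in control. The standard deviation of the log2 difference over genes above the floor on both arrays was 0.31 in dKO, 0.34 in control and 0.64 in the RA pair. When each array was divided by its median before the floor was set, 55.6% of the dKO differences were higher proximally, against 41.3% with the deposited scaling. That division moved the median difference of all genes to 0.07 in dKO and −0.11 in control.

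Of the 155 control proximal differences 29 were also 2-fold in dKO, 18.7% of the control and 49.2% of the dKO list. Of the 159 control distal differences 37 were, 23.3% and 44.0%. None was reversed at 2-fold, a count of 0. Most of the other control differences kept their sign with a smaller size: 101 of the 123 proximal ones measured in dKO were positive there, and 99 of the 113 distal ones were negative. The median log2 difference of these other genes was 1.31 in control and 0.56 in dKO proximally, and −1.27 and −0.51 distally. These genes were picked for their size in control, which by itself favours a smaller value in another pair. Picked by size in dKO instead, the 59 proximal genes had a median of 1.22 in dKO and 0.92 in control, and the 84 distal genes −1.15 and −0.93. In the RA pair, which shares no array with either, 4.43% of genes were 2-fold higher proximally and 6.17% distally. Picked by that difference, and measured in all pairs, 483 proximal genes had medians of 0.31 in control and 0.29 in dKO, and 680 distal genes −0.04 and −0.25. Of those, 87 and 79 were 2-fold the same way in control, against 32 and 34 in dKO.

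Genes higher proximally in both pairs were led by Fap, which encodes a membrane protease of fibroblasts. Its signals were 518 and 84.7 in the proximal and distal dKO parts and 634 and 65.4 in control, log2 2.61 and 3.28. Lbx1, the homeobox gene of migrating limb muscle precursors, had 2157 and 456 and 1355 and 227, log2 2.24 and 2.58. Both genes were several-fold higher proximally in each pair, and the distal level of Lbx1 was higher in dKO than in control. A second Lbx1 probe set gave a smaller dKO difference, 0.66 against 1.52 in control. Cxcl12, a chemokine that guides migrating precursors, had 379.9 and 100.0 in dKO, log2 1.93, and 315 and 52.6 in control, where the distal array was at the floor and the difference at least 2.41.

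Transcription factor genes higher proximally in both pairs were Gsc, Sim2, Ebf2, Foxc2 and Pax1 among others. Gsc, a homeobox gene of the proximal anterior bud, had 467 and 140.4 in dKO (log2 1.73) and 377 and 20.1 in control (at least 2.66). Sim2, a bHLH-PAS factor gene, had 506 and 176 (log2 1.53) and 447 and 73.0 (2.61). Ebf2, an Early B-cell factor gene, had 466 and 159 (log2 1.55) and 269 and 16.8 (at least 2.17). For these 3 genes the proximal levels were close between dKO and control or higher in dKO, and the distal level was higher in dKO. Foxc2, a forkhead gene of somite and body wall mesenchyme, had the larger difference in dKO: 621 and 188 in dKO, log2 1.72, against 207 and 93.7 in control, log2 1.14. Pax1, a paired box gene of the sclerotome and the shoulder girdle region, had 271 and 113 in dKO (log2 1.27) and 591 and 5.76 in control, where the distal array was at the floor (at least 3.31). Eya1, a transcriptional cofactor and phosphatase of muscle precursors, differed by 1.21 in dKO and 1.65 in control. The remaining genes among the largest were Pgm5, with 814 and 194 in dKO and 222 and 81.1 in control, Ovca2, with 508 and 134 and 634 and 182, Nav3, with 352 and 107 and 292 and 85.3, and Fibin, a gene named for fin bud initiation, with 248 and 79.8 and 353 and 44.4. Of the 29 shared genes 24 were also 2-fold higher proximally in the RA pair, against 4.43% of all genes measured there.

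**Figure D1:**
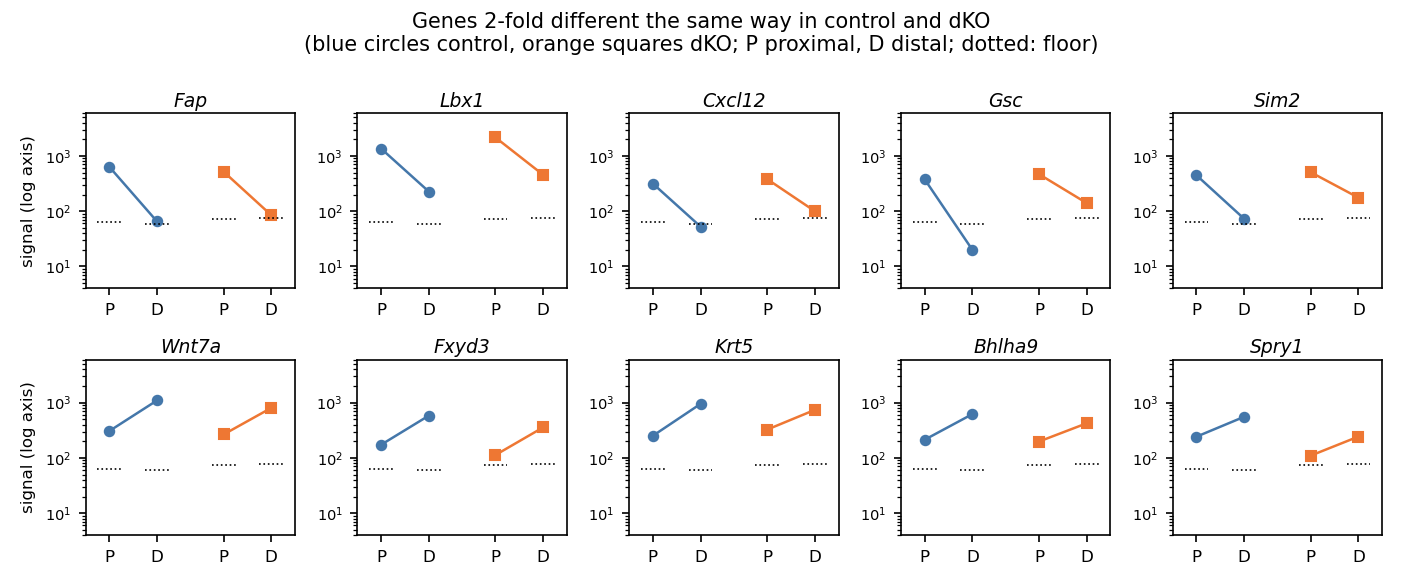
Signals of 10 genes that were 2-fold different the same way in both pairs, on a log axis, 1 point per array, with the floor of each array dotted. Fap is about equal in control and dKO at 634 and 518 proximally, and Wnt7a and Fxyd3 are higher distally in both pairs.

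Genes higher distally in both pairs included Wnt7a, Fxyd3 and Krt5, which surface epithelium is known to express. Wnt7a, the dorsal ectoderm ligand that patterns the back of the limb, had signals of 266 and 802 in dKO and 306 and 1093 in control, log2 −1.59 and −1.84. Fxyd3, a regulator of the sodium pump in epithelia, had 113 and 356 and 173 and 580.1, log2 −1.66 and −1.74. Krt5, a basal keratin, had 325 and 739 and 251 and 948, log2 −1.18 and −1.91. The distal array was higher in both pairs for all 3 genes. Ridge genes shared by the pairs were Bhlha9, a bHLH gene of the ridge, with 198 and 422 in dKO (log2 −1.09) and 213 and 618 in control (−1.54), and Dlx1, a distal-less homeobox gene, with 108 and 237 (−1.14) and 95.03 and 315 (−1.73). Spry1, an FGF-induced inhibitor of the same pathway, was lower in both dKO parts than in control, with a similar difference between the parts: 110.0 and 243 in dKO, log2 −1.14, and 242 and 553 in control, log2 −1.19. Cdkn1a, the cyclin-dependent kinase inhibitor p21, differed by −1.07 in dKO and −1.89 in control. Other members were Gja3, a gap junction gene, with a bound of −1.63 in dKO, Cntn2, a cell adhesion gene, with a bound of −1.59, Adamts18, a secreted protease, with −1.53, and Nap1l5, with −1.56. Edar, the ectodysplasin receptor (−1.09), Ripk4 (−1.09), Sfn (−1.06), Trim29 (−1.12) and Kdf1 (−1.04), all known from stratifying epithelium, were picked from the 37 after their values were seen. Of the 37 genes 21 were also 2-fold higher distally in the RA pair, against 6.17% of all genes measured there.

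The promoters of the genes higher distally in dKO differed in base composition from those of the genes at large. A RefSeq promoter of 300 bases (250 before and 50 after the start) was at hand for 71 of the 84 genes and for 9434 of the 11653 measured genes. The CpG observed-to-expected ratio, which is high in CpG islands, had a median of 0.506 for the 71 and 0.767 for all. It reached 0.6 in 35.2% of the 71 and 74.1% of all. The median was 0.504 for the genes shared with control and 0.516 for those 2-fold in dKO alone. The distal genes of control had 0.565 and the proximal ones 0.590, but there, as for the proximal dKO genes, fewer than 80% had a promoter and the comparison is void. The low ratio is therefore not shown to be particular to the dKO list. The TATAAA letters (either strand) stood in 11.3% of the 71 windows against 8.34% of all, and GGGCGG in 62.0% against 71.2%. Examples of 250 bases upstream of the start, 5′ to 3′ on the gene's strand, are set out to show the range, with every CG in capitals (RefSeq, GRCm38.p6): Krt14 at chr11:100206031-100206280 and Fxyd3 at chr7:31076698-31076947, both on the minus strand and with 5 CGs, Wnt7a at chr6:91411354-91411603, minus strand, with 34 CGs, and, for a proximal gene whose difference was lower in dKO, Irx3 at chr8:91801655-91801904, minus strand, with 13 CGs.
Krt14: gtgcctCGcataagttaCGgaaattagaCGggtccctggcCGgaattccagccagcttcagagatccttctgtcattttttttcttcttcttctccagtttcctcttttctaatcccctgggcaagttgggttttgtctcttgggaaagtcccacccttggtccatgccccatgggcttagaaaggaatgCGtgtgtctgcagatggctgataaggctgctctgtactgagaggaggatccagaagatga
Fxyd3: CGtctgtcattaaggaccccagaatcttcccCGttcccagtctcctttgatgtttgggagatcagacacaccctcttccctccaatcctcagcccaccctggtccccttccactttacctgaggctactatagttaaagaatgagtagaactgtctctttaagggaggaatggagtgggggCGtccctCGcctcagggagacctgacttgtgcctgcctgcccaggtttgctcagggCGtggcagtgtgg
Wnt7a: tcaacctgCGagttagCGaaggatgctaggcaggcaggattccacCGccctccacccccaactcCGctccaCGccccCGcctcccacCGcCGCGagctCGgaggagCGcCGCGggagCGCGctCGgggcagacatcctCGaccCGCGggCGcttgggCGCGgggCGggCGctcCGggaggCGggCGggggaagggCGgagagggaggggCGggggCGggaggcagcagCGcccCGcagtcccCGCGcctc
Irx3: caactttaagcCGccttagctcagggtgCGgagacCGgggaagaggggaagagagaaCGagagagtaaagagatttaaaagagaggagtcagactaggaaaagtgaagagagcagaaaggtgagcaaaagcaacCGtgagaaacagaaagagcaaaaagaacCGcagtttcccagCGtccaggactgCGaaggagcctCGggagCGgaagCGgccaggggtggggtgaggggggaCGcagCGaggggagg
The windows of the epithelial genes Krt14 and Fxyd3 hold few CGs, with ratios of 0.325 and 0.265, while that of Wnt7a is dense in them with 0.905 and that of Irx3 has 0.790. Genes higher distally in both pairs therefore include both kinds of promoter.

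The genes with the largest control differences that were under 2-fold in dKO included known regulators of the proximal segment. Meis2 had signals of 3456 and 2235 in the proximal and distal dKO parts and 2941 and 1094 in control, log2 0.63 and 1.43. Meis1 had 709 and 582 and 614 and 202, log2 0.28 and 1.61. Proximally dKO was higher than control by log2 0.23 for Meis2 and 0.21 for Meis1, and distally by 1.03 and 1.53. The 4 Meis2 probe sets above the floor gave 1.23 to 1.43 in control and −0.08 to 0.63 in dKO. Irx3, an Iroquois homeobox gene needed for proximal and anterior skeleton, had 2369.6 and 1367 in dKO and 2018 and 160.4 in control, log2 0.79 and 3.65, the largest control difference among genes above the floor on all 4 arrays that were under 2-fold in dKO. Its neighbour Irx5 had 286 and 143 in dKO and 251 and 17.2 in control, log2 0.998 and at least 2.08, and so lay just under 2-fold in dKO. It was past 2-fold in dKO when arrays were divided by their medians or quantile normalized. In all, 0 of 11 measured proximal limb genes were 2-fold in dKO against 5 in control, with medians of 0.16 and 0.86. Under those 2 scalings the dKO count was 1. Of all measured genes 1.23% were 2-fold in dKO and 2.76% in control, so the dKO count does not set this list apart. Tbx18, a T-box gene of proximal mesenchyme, had 769 and 976 in dKO, slightly higher distally, and 1678 and 659.7 in control.

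HoxB and HoxC genes were also under 2-fold in dKO. Hoxb5 had 1241 and 844 in dKO and 1699 and 226 in control, log2 0.56 and 2.91. Hoxb3 had 1689 and 1116 and 1179 and 179, log2 0.60 and 2.72, and a second Hoxb3 probe set 0.01 and 0.74. Hoxb4 had 322 and 269 and 352 and 90.8, and Hoxb6 427 and 320.4 and 300.1 and 37.1, so the distal levels of these 4 genes were above those of control by more than 2-fold while the proximal levels were within 2-fold of them. All 7 HoxB genes measured in both pairs had a smaller difference in dKO, with 0 of 8 measured past 2-fold in dKO and 4 of 7 in control. Hoxb9 and Hoxb13, whose products act in the trunk and tail, were near equal in both dKO parts, 644 and 646 and 244 and 183, against 90.5 and 97.4 and 3.3 and 8.31 in control. In the HoxC cluster Hoxc4 differed by 0.28 in dKO and 2.13 in control, and Hoxc5 by −0.02 and 1.96. Hoxc8, with 1781 and 2403 in dKO and 414 and 1083 in control, and Hoxc9, with 1259 and 1387 and 176 and 379, were higher in dKO than in control in both parts, and their distal excess was smaller, log2 −0.43 and −0.14 against −1.39 and −1.10. In HoxA and HoxD 0 of 8 and 0 of 7 measured genes were 2-fold in dKO, against 2 of 8 and 2 of 7 in control. The dKO counts of 0 in these clusters are near the 1.23% of all measured genes.

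Of the genes tied to RA signalling, Rarb and Nr2f1 were nearer to even in dKO. Rarb, an RA receptor gene that RA itself induces, had 647 and 379.8 in dKO and 617 and 117 in control, log2 0.77 and 2.40. Nr2f1, an orphan nuclear receptor gene, had 3008 and 1933 and 2050.0 and 388, log2 0.64 and 2.40. Cyp26b1, the RA-degrading enzyme of the distal bud, was near the floor on both dKO arrays, 79.3 and 117, against 302 and 780.3 in control, and on the RA arrays had 3323 and 2301. Of 10 measured RA response and breakdown genes 0 were 2-fold between the dKO parts and 1 each way in control, with medians of 0.17 and −0.04. The hedgehog co-receptors Cdon, with 1566 and 967 in dKO and 1400.2 and 327 in control, and Boc, with 2011 and 1323 and 2098 and 950.2, the Wnt antagonist Sfrp1, with 2999 and 1820.4 and 2016 and 392, and the Eph receptor Epha3, with 1049.6 and 1179 and 737 and 289.9, were higher in the distal dKO part than in the distal control part. The largest other genes by size were Mup10, a major urinary protein gene (−0.39 in dKO, 3.15 in control), the Hoxb5 antisense gene Hoxb5os (0.76, 2.44) and the long noncoding RNA Crnde (0.88, 2.44).

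The gap between the pairs was divided into its proximal and its distal side. For the 99 control-only proximal genes above the floor on all 4 arrays, the median log2 difference of dKO over control was 0.21 proximally and 1.19 distally. The distal arrays differed more between the pairs in 91 of the 99 and the proximal arrays in 8, and 57 were 2-fold or more higher in the distal dKO part than in the distal control part. For the 87 control-only distal genes the medians were 0.60 proximally and −0.26 distally, with the larger difference distally in 32 and proximally in 55. Over all 10593 genes above the floor on the 4 arrays the medians were 0.00 and −0.01, with the larger difference distally in 54.5%. The control-only genes were chosen for a large control difference. That by itself favours a higher dKO value in the part where control was low, and a lower one where control was high.

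**Figure D2:**
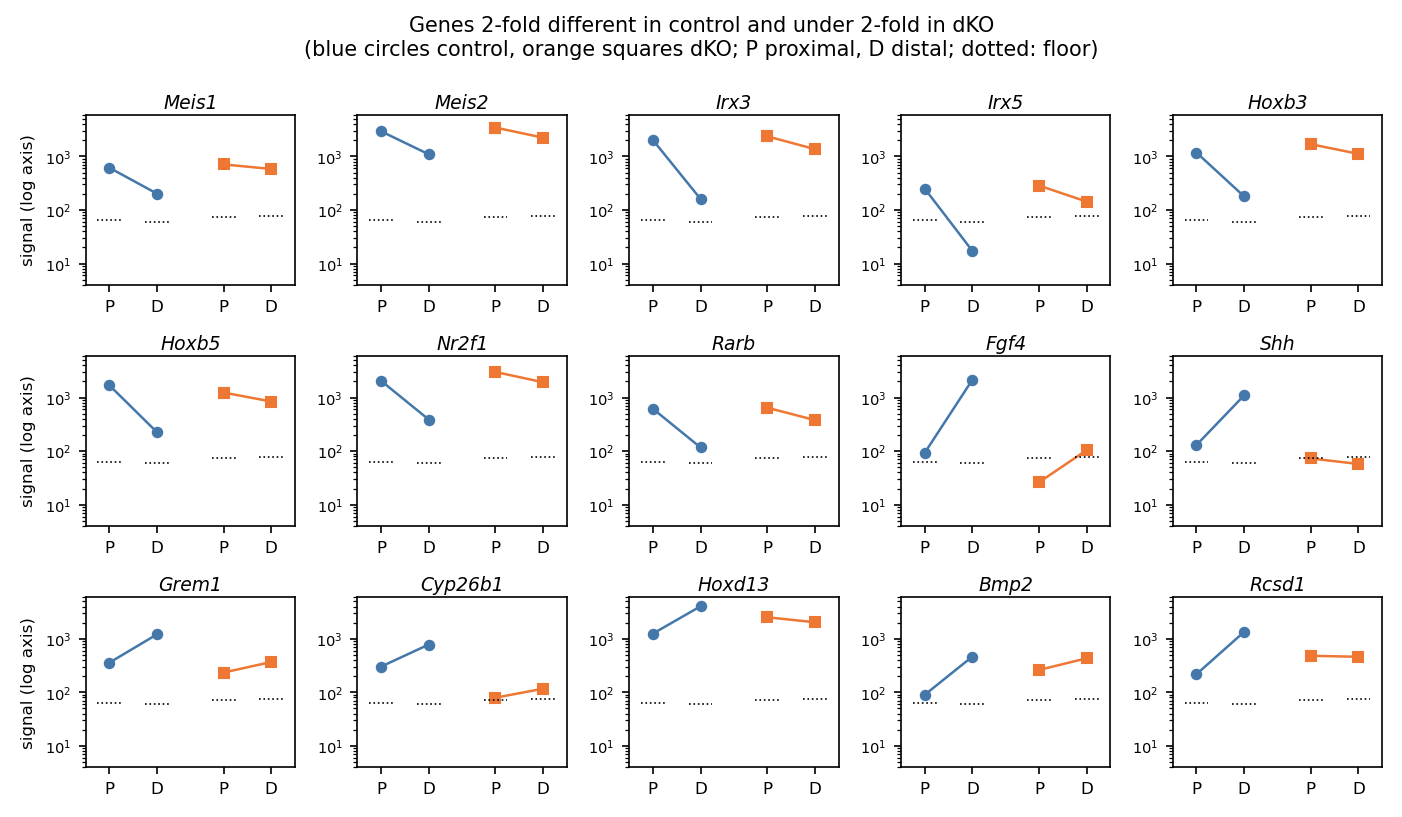
Signals of 15 genes that were 2-fold different in control and under 2-fold in dKO, on a log axis, 1 point per array, with array floors dotted. For the proximal genes from Meis1 to Rarb the distal dKO point is above the distal control point, and for Fgf4 and Shh the dKO points lie near or under the floor.

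Distal genes under 2-fold in dKO included Fgf4, Fgf8 and Shh, the signals of the ridge and the posterior margin. Fgf4, an FGF of the posterior ridge, had 26.2 and 104 in dKO, the proximal one under the floor, and 92.7 and 2141 in control, so its difference was a bound of −0.52 in dKO and −4.53 in control. The 3 other Fgf4 probe sets were at the floor on both dKO arrays. In control 2 of them gave −4.17 and −4.13 and the last was at the floor on both arrays. Fgf8, the FGF of the whole ridge, had 24.96 and 109 in dKO and 40.9 and 238 in control, bounds of −0.58 and −1.90. Shh had 72.8 and 57.6 in dKO, both under the floor, and 130.1 and 1099 in control (log2 −3.08). Fgf4 and Shh were thus high on the distal control array and at or near the floor on both dKO arrays. Fgf8 was lower than these on the distal control array, at 238, and had 109 on the distal dKO array, where the floor was 76.1. In bulk tissue, fewer cells of a type and less RNA per cell cannot be told apart.

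Targets and partners of these signals were under 2-fold too. Grem1, the BMP antagonist Gremlin 1, had 234 and 368 in dKO and 357 and 1208 in control, log2 −0.65 and −1.76. Gli1, a direct SHH target, had 114 and 172 and 236 and 568, log2 −0.60 and −1.27. Both were lower in dKO than in control in each part. Bmp2, a ligand of the posterior mesenchyme and the ridge, differed instead by a higher proximal level, 261 and 432 in dKO against 89.7 and 464 in control, log2 −0.72 and −2.37. Hoxd13, the most 5′ Hoxd gene, had 2521 and 2030.4 and 1247 and 4035, log2 0.31 and −1.69, with dKO over control at 1.02 proximally and −0.99 distally. Rcsd1, a gene for a protein that binds actin capping protein, had 481 and 460.3 and 218 and 1344, log2 0.06 and −2.63. Ppp2r2c (−0.89 in dKO, −2.52 in control), Lypd6b (−0.89, −1.87), Slc16a12 (−0.31, −1.85), Rassf10 (−0.93, −1.79) and St14 (−0.91, −1.78) completed the largest of the group.

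By list, 2 of 14 measured ridge genes were 2-fold higher distally in dKO against 9 of 14 in control, with medians of −0.57 and −1.33, and 12 of the 13 measured in both pairs had a smaller difference in dKO. Among them Sp8 differed by −0.72 and −1.36, Dlx2 by −0.40 and −1.28 and Dlx5 by −0.61 and a bound of −1.94, in dKO and control. Of the distal limb genes 0 of 15 were 2-fold in dKO, near the 1.23% of all measured genes, and 4 of 16 in control. Their medians, −0.47 and −0.55, were close with the deposited scaling. Lhx9, a LIM homeobox gene of the distal bud, had 2394 and 4253 in dKO, higher distally, and 4192 and 3234 in control, and Msx1 2342 and 3575 and 3115 and 3408. The 10 FGF response genes had medians of −0.36 in dKO and −0.34 in control with 1 past 2-fold in each, Spry1 in both. Spry4 differed by −0.86 in dKO and −0.92 in control, Etv4 by −0.58 and −0.44, and Dusp6 by −0.25 and −0.21. With the deposited scaling the FGF response genes thus differed about as much between the dKO parts as between the control parts. Quantile normalization gave medians of −0.35 and −0.34. When arrays were divided by their medians, the list medians were −0.30 in dKO and −0.44 in control, with 1 and 2 past 2-fold. Those of the distal limb genes were then −0.41 and −0.65. Among genes of the SHH pathway and the posterior margin 1 of 12 was 2-fold in dKO (Tbx2, higher proximally) and 6 of 13 in control. Of BMP pathway genes 0 of 11 were 2-fold in dKO and 2 of 11, Bmp2 and Bmp4, in control, and of WNT pathway genes 2 of 19, Wnt7a and Wnt6, in dKO and 3 of 19 in control.

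**Figure D3:**
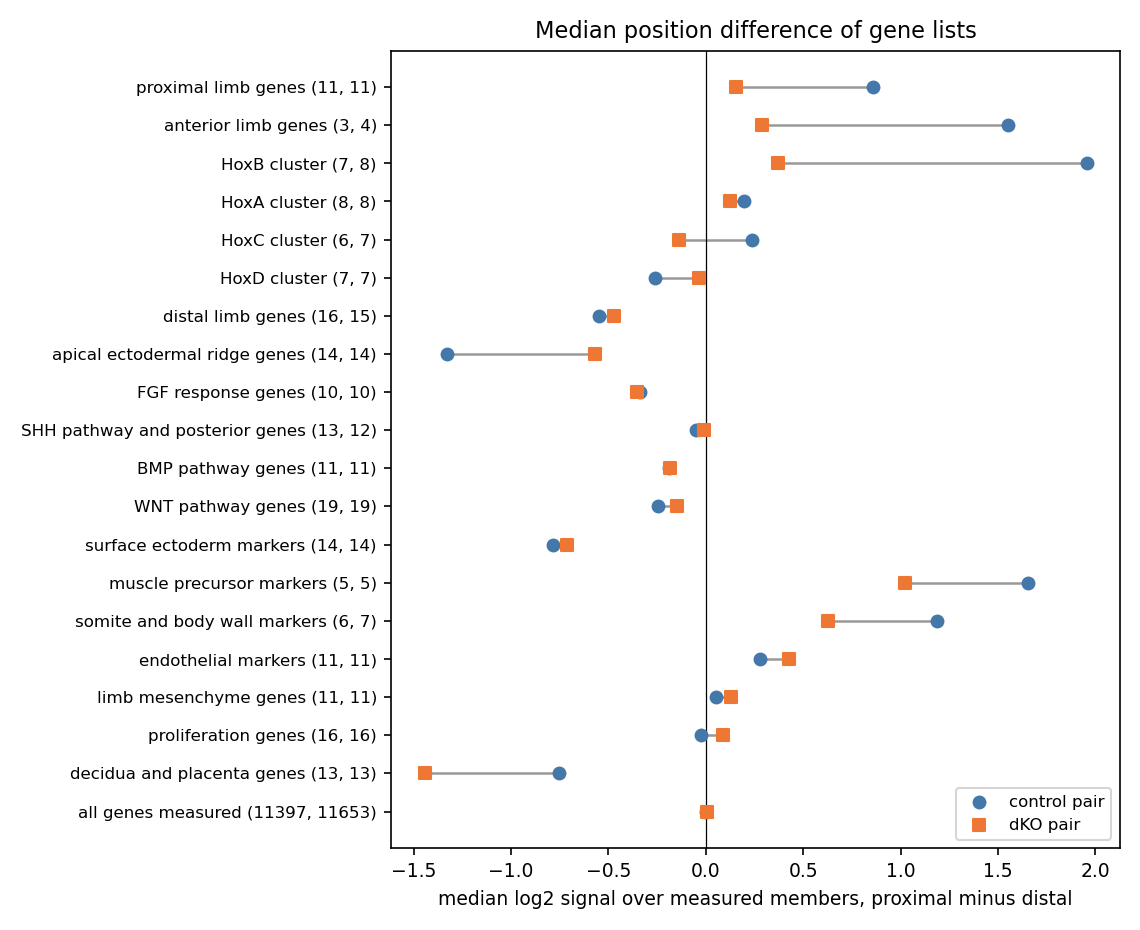
Median log2 signal, proximal minus distal, over the measured members of each list in control (blue circles) and dKO (orange squares), with the numbers measured in control and dKO in parentheses. The HoxB, proximal limb and ridge medians lie nearer to 0 in dKO, at 0.37, 0.16 and −0.57, the surface ectoderm median is −0.71 against −0.79, and the decidua and placenta median is farther from 0 at −1.44. The decidua and placenta list was drawn up after these values had been seen.

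Differences that were 2-fold in dKO and not in control numbered 77, of which 30 were higher proximally and 47 distally. In control 8 of the 30 and 6 of the 47 were at the floor on both arrays. Of the 30, 11 were 2-fold the same way in the RA pair, where 4.43% of measured genes were 2-fold higher proximally. Of the 47, 14 were, where 6.17% of measured genes were 2-fold higher distally. Aldh1a2, the RA-synthesizing enzyme of the body wall, was below the floor on both control arrays, 14.3 and 15.8, and had 256 and 62.8 in dKO, at least log2 1.75. It was below the floor on the RA arrays too, at 7.38 and 2.28. Wt1, a zinc finger gene of the mesothelium and the kidney field, had 16.4 and 25.1 in control and 281 and 120.4 in dKO, log2 1.23, and 416 and 154 on the RA arrays. Wt1 was thus above the floor in both dKO parts and Aldh1a2 in the proximal part alone, and both genes were higher proximally. Of the other mesothelium markers Tcf21 had 199 and 198 in dKO and Upk3b 148 and 156, near equal in both parts, with 7.96 and 8.38 and 17.8 and 109 in control.

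Other genes higher in the proximal dKO part were under 2-fold in control, most of them above the floor there. Ldb2, a LIM domain binding cofactor gene, had 400.4 and 141 in dKO and 203 and 111 in control, log2 1.503 and 0.87; its other 2 probe sets gave 0.99 and 1.27 in dKO and 1.30 and 1.21 in control. Fbln5, an elastic fibre gene, had 232 and 83.4 and 137 and 139, log2 1.48 and −0.01. Tbx2 had 298 and 143 and 219 and 139, log2 1.06 and 0.66. The endothelial gene Vwf differed by 1.27 and 0.31, Maf by 1.17 and 0.59, Afap1 by 1.26 and 0.46, Rarres2 by 1.23 and 0.75, and the phosphatase gene Dusp1 by 1.11 and −0.01. For Alyref (1.17 and 0.21) a second probe set gave 0.14 in dKO, so its sets disagree. Bounds among these genes were at least 1.56 for Ntrk2, the BDNF receptor, 1.39 for Cirbp, 1.37 for Nsg2, 1.13 for Tspan15 and 1.08 for Tec. Cirbp was higher distally in control, at −0.78. Ntrk2 and Tec were under the floor on both control arrays. With the mean of all probe sets of a gene, several of these dKO differences were under 2-fold. Maf and Ntrk2 were then at 0.14, Afap1 at 0.44, Rarres2 at 0.64, Nsg2 at 0.65 and Fbln5 at 0.71. Ldb2, Tbx2, Vwf, Dusp1, Cirbp, Tspan15 and Tec stayed past 2-fold with that mean.

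Of the genes higher in the distal dKO part and not in control, Cdx2, the caudal homeobox gene of the tail and the trophectoderm, had the largest difference, with 159 and 629 in dKO and 13.7 and 85.5 in control, log2 −1.98. Its proximal control array was at the floor, and the control bound was −0.42. A list of typical Polycomb targets, regulators known mainly from outside the limb, had 34 members measured in dKO. Of these Gsc, Cdx2 and Zic5 were 2-fold between the dKO parts, against 1.23% of all measured genes, and the median was −0.11. Gsc (377 proximally) and Zic5 (971 and 1529.8) were also well above the floor in control. In control 11 were measured and the others were at the floor on both arrays. Zic1, a zinc finger gene of the neural tube and somite, had 1497 and 2074 in dKO against 20.1 and 13.1 in control, and En2, a midbrain homeobox gene, 284 and 369.6 against 2.78 and 1.79. Pax6 had 360.2 and 288 against 10.29 and 16.2, and Foxa1 131 and 257 against 0.906 and 0.834. These genes were above the floor in both dKO parts and less than 2-fold different between them. Lhx1 differed by 0.95, Gata3 by 0.80, and Tbx1 by 0.79.

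Exph5, Dync1i1 and Emp1 led the genes that were above the floor in control and less than 2-fold different there. Exph5 had 78.2 and 262 in dKO and 152 and 224 in control, log2 −1.75 and −0.56. Dync1i1, a dynein chain gene, had 144 and 458 and 328 and 369, log2 −1.67 and −0.17. Emp1, an epithelial membrane protein gene, had 437 and 1341 and 704 and 1401, log2 −1.62 and −0.99. In all 3 the distal levels were near those of control and the proximal levels lower. Zic5 had 626 and 1372 and 971 and 1529.8, log2 −1.13 and −0.66. Apod differed by −1.34 and −0.96, Svopl by −1.34 and −0.59, Krt14, the partner of Krt5, by −1.45 and −0.81, and Prss23 by −1.38 and 0.07, the last without a distal excess in control and at −0.20 in dKO with its next brightest probe set. Bounds of the distal dKO list were −1.24 for Rbm45, −1.18 for Rnf43, which had a larger bound of −1.61 in control, and −1.16 for Lgals3. Probe sets with the suffix _x_at, which can match several transcripts, represented 9 of the 47 distal genes (19.1%), among them Krt14, Prss23, Svopl and Htra1, against 4.52% of all measured genes.

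Genes known from the decidua and placenta, the maternal and extraembryonic tissue around the embryo, had the largest differences of the distal dKO list. Prl8a2, a decidual prolactin family gene, had signals of 131 and 2129 in dKO and 204 and 537 in control, log2 −4.02 and −1.40, and 21.1 and 37.1 on the RA arrays, both under the floor. Adm, the vasoactive peptide adrenomedullin, had 164 and 828 in dKO and 115 and 268 in control, log2 −2.34 and −1.22, from an _x_at set, while its other set was at the floor. Cryab, a small heat shock protein gene, had 152 and 463 and 89.9 and 173, Procr, the protein C receptor gene, 153 and 462 and 114 and 237, Htra1, a secreted protease, 717 and 1801 and 248 and 479.7, and Prap1, 273 and 773 and 104 and 239. In each the distal dKO array was the highest of the 4 dKO and control arrays. On the RA arrays Prap1 had 570 and 2442, a larger distal excess than in dKO (log2 −2.10). Adm had 320 and 402 there, Htra1 123 and 128, Procr 50.5 and 72.3, and Cryab 31.6 and 54.4, the last under the floor on both. Prl4a1, Prl7a1 and the retroviral envelope gene Erv3 had bounds of −1.501, −1.44 and −2.83 in dKO. Of the 17 Prl genes on the array with a digit after the symbol, 3 were measured in dKO and all 3 were 2-fold higher distally. Prl4a1 and Prl7a1 were above the floor on the distal dKO array alone, so they could only come out higher distally. On a list of 34 decidua and placenta genes, drawn up after these values had been seen, 13 were measured in each pair. Of these, 8 were 2-fold higher distally in dKO and 4 in control, against 0.721% and 1.4% of all measured genes. Because the list followed from the dKO values, that contrast was favoured in advance and supports nothing. In dKO 13 were above the floor distally and 10 proximally, so the others could only come out higher distally. The summed signal of the list was 5739.7 proximally and 11219 distally in dKO, and 6522 and 8917 in control. The placental gene Tpbpa had 27.0 and 123 in dKO. The part of such tissue in the distal dKO differences was not tested.

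**Figure D4:**
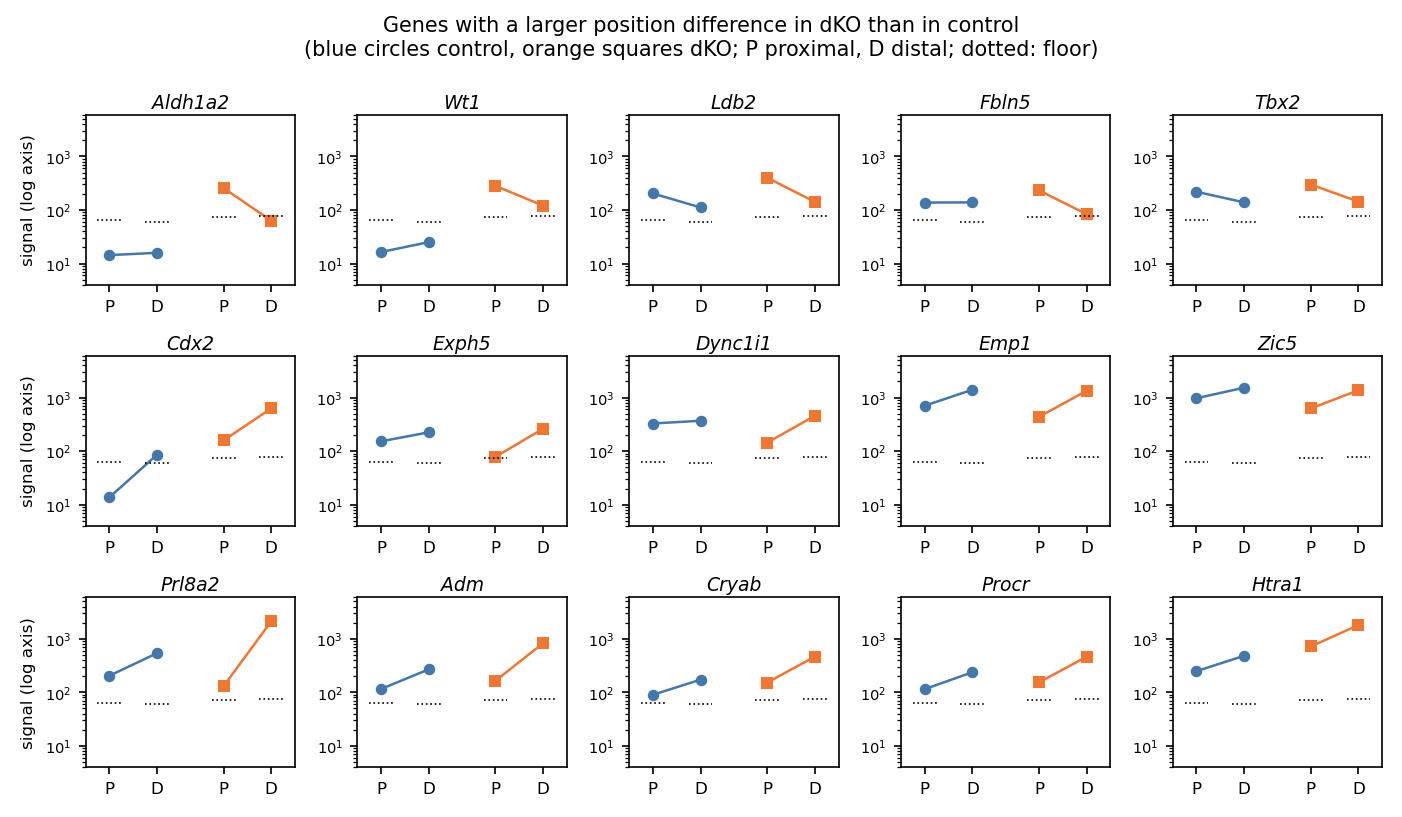
Signals of 15 genes whose position difference was larger in dKO than in control, on a log axis, 1 point per array, with array floors dotted. Aldh1a2 and Wt1 lie under the floor on both control arrays, and Prl8a2 reaches 2129 on the distal dKO array against 131 on the proximal one.

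Markers of the other cell types of the bud were read in the same pairs. All 14 measured surface ectoderm markers were higher distally in dKO, 4 of them 2-fold (Krt14, Krt5, Wnt6 and Cldn7), and 13 of 14 in control, 2 of them 2-fold, with medians of −0.71 and −0.79. The epithelial adhesion gene Cdh1 had 917 and 1777 in dKO and 1186 and 2262 in control, and Epcam 911 and 1468 and 834 and 1903. Their summed signal was 15571 proximally and 24153 distally in dKO, and 14218 and 23992 in control. In size the difference was smaller in dKO for 7 of them and larger for 7. Of the ridge genes, which the same epithelium expresses, 12 of 13 were smaller, as given above, and the difference between the 2 lists was not tested. Dividing arrays by their medians left all 14 ectoderm markers higher distally in dKO, with 2 past 2-fold in dKO and 4 in control, the reverse of the counts above.

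Muscle precursor markers were higher proximally, 3 of 5 measured by 2-fold in each pair, with medians of 1.02 in dKO and 1.65 in control. Of all measured genes 0.506% were 2-fold higher proximally in dKO and 1.36% in control. Besides Lbx1 and Eya1, Met, the receptor that lets these cells delaminate, had 2097 and 1034 in dKO and 1380.2 and 732 in control, log2 1.02 and 0.92. With the mean of all probe sets, Met was at 0.48 and Eya1 at 0.55 in dKO, while Lbx1 stayed past 2-fold. With no floor and 50 added Met was at 0.99. Pax3, the paired box gene of migrating precursors, had 1179 and 775 and 1096 and 218, log2 0.61 and 2.33, but a second set above the floor gave 1.88 and 2.96, so its sets disagree on the size in dKO. Myf5, an early myogenic factor gene, was at the floor on both dKO arrays at 0.808 and 0.701. Of somite and body wall markers 2 of 7 in dKO (Foxc2 and Pax1) and 4 of 6 in control were 2-fold higher proximally. All 11 endothelial markers were higher proximally in both pairs by less than 2-fold, with medians of 0.43 and 0.28, and under all 3 scalings. Kdr, a VEGF receptor gene, had 422 and 268 and 259 and 188. Of erythroid (6 measured), macrophage (4), and neural and Schwann markers (4), 0 were 2-fold in dKO, and the erythroid median was −0.05. Hbb-b2, a globin gene outside the erythroid list, was 2-fold higher distally in dKO. It had 2235 and 5122 in dKO and 2784 and 4864 in control, log2 −1.20 and −0.80, and −2.51 in the RA pair. The summed signals of the neural list were 1469.6 and 1366 in dKO and 657 and 559.9 in control. The part of these cell types in the position differences was not tested.

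Since 1.23% of all measured genes were 2-fold in dKO, counts near 0 set no short list apart. This holds for the dKO counts of 0 given above, and for more lists. Such counts were found for limb mesenchyme genes (0 of 11 in both pairs, median 0.13 in dKO), chondrogenic genes (0 of 9 in dKO, 1 of 7 in control, Sox9 at 0.28 and 1.03), Eph receptors and ephrins (0 of 15 in dKO, 2 of 16 in control) and hindlimb genes (0 of 4). Among the last, Pitx1, the hindlimb homeobox gene, had 114 and 165 in dKO and 8.46 and 6.22 in control, and Hoxc10 543 and 664 and 36.7 and 85.2. Of 16 proliferation genes 0 were 2-fold, with a median of 0.09 in dKO, and Mki67 had 5628 and 5437. Cdkn2a, a Polycomb-silenced cell cycle inhibitor gene, was just above the floor in dKO at 77.3 and 114 and below it in control at 3.01 and 8.14. Of 4 anterior limb genes 1, Pax1, was 2-fold in dKO, and of 3 in control 2, Pax1 and Alx1, the latter with 1575 and 1194 in dKO and 898 and 306 in control, while a dim second Alx1 probe set gave a bound of −0.71 in dKO. Of the 3 measured RA synthesis and carrier genes Aldh1a2 was 2-fold in dKO, Rdh10, which makes retinaldehyde, had 725 and 413 and 432 and 304, and Rbp4, the retinol carrier, 332 and 367 and 97.0 and 101. Their median was 0.81 in dKO and, over the 2 measured there, 0.23 in control.

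Where a gene had 2 probe sets above the floor, the sets gave a measure of technical error within an array pair. In dKO the gap between the 2 brightest sets had a standard deviation of 0.34 over 4889 genes, against 0.27 over 4944 in control. When the brighter set was 2-fold in dKO (25 genes), the other had the same sign in 21 and was 2-fold in 6, and in control (49 genes) in 48 and 33. Single dKO differences of 2-fold or more thus had less support from a second set than control ones. Just inside the threshold in dKO were Dact1 (1.0003) and Prcp (1.002), and just outside it Irx5 (0.998) and Timp1 (0.999). Across the 10593 genes above the floor on all 4 arrays, the control and dKO differences had a Pearson correlation of 0.43, across genes that are not independent replicates.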

How the data were processed

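Total RNA of each bud part was labelled as biotin cRNA and hybridised to 1 one-colour Affymetrix array. The deposited values are signal intensity on a linear scale, made by the authors with MAS5 per the submitters' processing notes, its version not given in the sources used here. Each array has a mean of 500 after the lowest and highest 2% of its 45101 probe sets are left out, as checked on the values. The number of arrays, 1 per group, limits the precision, as do signals at the floor and the disagreement between probe sets of a gene; no sequencing depth applies. The 64 control probe sets were left out. The platform annotation gives 1 gene symbol for 34958 probe sets, several for 932, which were not used, and none for the others. For each of 18193 genes 1 probe set was kept, the brightest by its mean log2 over all 6 arrays.

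From these the log2 difference of the 2 parts was computed in Python 3.11.15 (pandas 2.3.3), with signals under the array median set to it, a threshold of 2-fold and no test. Genes 2-fold in control were classed by their dKO difference as shared, under 2-fold or reversed. The classing was tested on simulated data. The alternatives were another floor, an added 50, a filter on floored genes, 2 other scalings, other rules for the probe set of a gene and 2 other folds.

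Genes are named by these rules: the 12 largest dKO differences each way with both arrays above the floor, the 8 largest bounds, the 6 largest shared with control, the 8 largest each way found in control or in dKO alone, every list member 2-fold in either pair, and Ring1, Rnf2, Meis1 and Meis2. Unnamed gene models were passed over. Further list members are named with their values as examples. The members, lists and rules were chosen with earlier results of these data known. The decidua and placenta list, the setting without _x_at probe sets and the comparison of genes picked in the RA pair were added after the present values were seen.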

Additional observations from a re-analysis of the deposited data

Results flagged for a closer look

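A gene is given here when the 2 dKO arrays and the 2 control arrays differed in opposite directions, by 2-fold or more in one pair and by at least 0.34 on the log2 scale in the other. The difference between the pairs was not tested, since each group has 1 array. Mup10 had a log2 difference, proximal minus distal, of −0.39 in dKO and 3.15 in control, with signals of 692 and 907 and 1569 and 177. Tbx18, the T-box gene of proximal mesenchyme, had −0.34 and 1.35, and its other probe set −0.41 and 1.21. Gjb2, the gap junction gene for connexin 26, had −1.19 in dKO and 0.97 in control, with signals of 266 and 608 and 832 and 426, and its neighbour Gja3 was higher distally in both pairs. Wdr76 had −1.02 and 0.48, with probe sets that disagree in dKO. Celf4, an RNA-binding protein gene, had −0.43 and 1.03, and its distal dKO signal of 1311 compares with 227 in control. Crym, which encodes a thyroid hormone binding protein, had −0.65 and 1.25, and Ngfr, the nerve growth factor receptor gene, −0.36 and 1.02. Serinc5 was the 1 gene of these that was higher distally in control, at −1.03, and proximally in dKO, at 0.40.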

How the results depend on the processing

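Counts of 2-fold genes depended on the floor, the probe set and the fold. With the floor at the 60th percentile, 36 genes were higher proximally and 48 distally in dKO, 17 and 19 of the control differences were shared, and 48 arose in dKO. With no floor and 50 added, 37 and 54 were higher and 19 and 20 shared. With genes above the floor on both arrays, 19 proximal differences were shared. With the mean of all probe sets, 31 and 44 were higher, 19 and 23 shared, and 33 arose. At a fold of 1.5, 370 and 427 were higher, 129 and 157 shared, 496 arose and 15 were reversed, and at a fold of 3, 10 and 13 were higher, 7 and 4 shared, and 12 arose. The shared part of the control differences ranged from 11.3% to 29.6% proximally and from 9.52% to 35.7% distally over all settings. Of 991 values of the named genes under 8 settings, 902 moved by less than 0.34, the standard deviation between probe sets of a gene, and 89 by more. The sign changed for 0 of the genes that were 2-fold in dKO and for 3 smaller ones: Alx1 (−0.15 with the mean of all probe sets), Rcsd1 (−0.03 with it) and Hoxc5 (0.20 with it and 0.04 when arrays were divided by their medians). Of 62 named genes 2-fold in dKO, 26 were under 2-fold with the floor at the 60th percentile, Cxcl12 (0.77), Aldh1a2 (0.69) and Spry1 (−0.64) among them, 15 with 50 added, and 24 with the mean of all probe sets, Wnt7a (−0.57) and Eya1 (0.55) among them. That mean also put Maf (0.14), Ntrk2 (0.14), Afap1 (0.44), Ebf2 (0.48), Met (0.48), Emp1 (−0.84), Apod (−0.70) and Zic5 (−0.66) under 2-fold. Krt14 and Prss23 were at −0.95 and −0.20 without _x_at probe sets. Leaving out a replicate was not possible with 1 array per group. No paired analysis was possible because each group has 1 array and the labels give no replicate numbers.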
